A study of Rattus norvegicus with 12 samples.

Results

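The miR-34 and miR-449 family of microRNAs (miRNAs) was followed in Wistar rat fetuses of embryonic day 17, in the lumbosacral part of the spinal cord. Members were the rows of the deposited miRNA table named rno-miR-34a, rno-miR-34b, rno-miR-34c, rno-miR-449a or rno-miR-449c with either arm of the hairpin, which gave 10 of 846 rows. The table holds 6 small RNA libraries. Normal replicates 4 to 6 came from normal fetuses, and ARM replicates 4 to 6 from fetuses with anorectal malformations (ARM) induced with ETU (ethylenethiourea, given to the dam in this rat model). The labels name no fetuses exposed to ETU without the malformation, so exposure and malformation cannot be told apart. They do not say how many litters were sampled or whether cords were pooled, so the p-values reflect only how far these samples spread, which may be technical. A second table holds long noncoding RNA (lncRNA) counts of 3 normal and 3 ARM libraries, replicates 1 to 3, from the same tissue and day.

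A miRNA is cut from a hairpin precursor, and either arm (5p or 3p) can be loaded into the silencing complex, which finds its targets mainly through the seed, bases 2 to 8. The miR-34 and miR-449 5p arms share their seed and are studied as a single family in mammals. In mice, the family is jointly needed to multiply basal bodies and build motile cilia in multiciliated epithelia, where it represses the centriole cap gene Ccp110. Separately, miR-34a is a direct transcriptional target of p53, and in frogs and human airway miR-449 represses the Notch ligand DLL1. In the spinal cord, neural progenitors bear primary cilia and ependymal cells line the central canal with motile ones.

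The 5p arms are shown first because their shared seed defines the family. All 10 rows matched a mature sequence of RefSeq (build GRCr8). Sequences run 5′ to 3′ with the seed in capitals.
miR-34a-5p: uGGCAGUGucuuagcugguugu
miR-34b-5p: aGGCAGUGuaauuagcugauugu
miR-34c-5p: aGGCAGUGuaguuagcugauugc
miR-449a-5p: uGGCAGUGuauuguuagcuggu
miR-449c-5p: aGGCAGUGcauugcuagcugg
All 5 carry the seed GGCAGUG, and of the 688 table rows with a RefSeq sequence no other row does. Outside the seed they differ. Counted from 1 at the 5′ end of miR-34b-5p, miR-34c-5p differs by A11G and U23C, so 21 of 23 bases agree. Between miR-449a-5p and miR-449c-5p 18 of 21 compared bases agree, and between miR-34a-5p and miR-449a-5p 15 of 22.

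The 3p arms of miR-34b and miR-34c share another seed, AUCACUA, which no other matched row has, and agree at 17 of 22 bases. They are shown because these hairpins differed in which arm had more counts.
miR-34b-3p: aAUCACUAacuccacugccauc
miR-34c-3p: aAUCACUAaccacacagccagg

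The family comes from 3 loci in RefSeq GRCr8. The miR-34a hairpin lies at chr5:165815952-165816053 on the plus strand, within the lncRNA LOC103692514. The hairpins of miR-34c (chr8:60306091-60306167) and miR-34b (chr8:60306609-60306692) lie 441 bases apart on the minus strand, within the span of the coding gene Hoatz and next to Btg4. The hairpins of miR-449c (chr2:46402375-46402473) and miR-449a (chr2:46403910-46404000) lie 1436 bases apart on the plus strand, within the lncRNA LOC134485839. The nearest coding genes before them are Mcidas, which encodes the multiciliated cell regulator multicilin, and Ccno, which encodes a cyclin needed for centriole amplification. The miRNA table itself gives no coordinates.

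Library totals ran from 11526673 to 13233949 counts. Levels below are CPM (the count relative to the library total after TMM scaling), with no length correction because the 7 members with a count are 22 or 23 bases long. The cord was rich in neural miRNAs, with the progenitor miRNA miR-9a-5p taking 31.4% to 33.1% of a library's counts. Beside it the family was scarce. Both arms of all members made up 0.0280% to 0.0322% of a library, and summed over the 5 rows with its seed the family ranked 106th of 582 seeds by mean level.

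The most abundant member was miR-34c-5p. Its levels were 249, 267 and 291 CPM in normal replicates 4 to 6 and 251, 265 and 264 CPM in ARM replicates 4 to 6. The ARM values all lay inside the normal range. It ranked between 148th and 155th of the 846 rows in every library, and its 2921 to 3561 counts made it the member with the least counting error. The next member, miR-34a-5p, the p53-responsive arm, stood at 19.4, 23.6 and 15.6 CPM in the normal libraries and at 14.6, 16.8 and 14.7 CPM in the ARM libraries. Its lowest normal library lay below its highest ARM library, so the groups overlapped. Over all 6 libraries there were 15.1 counts of miR-34c-5p for each count of miR-34a-5p.

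The third 5p arm, miR-449a-5p, the member tied most closely to multiciliated cells, was near 3 CPM. It stood at 3.58, 1.85 and 3.59 CPM in normal and 2.19, 3.40 and 2.61 CPM in ARM cord, on 24 to 44 counts a library. Here the lowest value of all was a normal library, and the groups overlapped fully. Its partner miR-449c was listed at 0 for both arms in all 6 libraries. A count of 0 allows up to 3 counts, or 0.226 to 0.256 CPM, in a library. The row miR-449a-3p was also at 0 throughout, and miR-34a-3p had 1 count, in ARM replicate 4. Rows at 0 need care in this table, since miR-451-5p, miR-144-3p and miR-144-5p, which mark red blood cells, were also listed at 0 in every library. Bounds and intervals on counts cover counting error only.

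**Figure D1:**
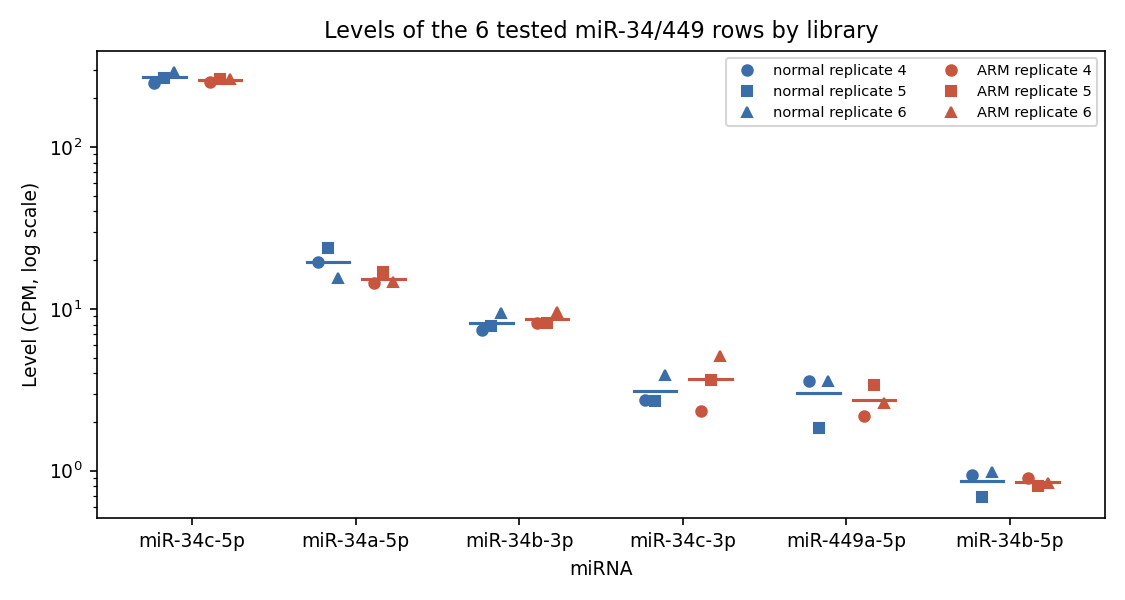
Level in CPM (log axis) of the 6 tested rows of the miR-34 and miR-449 family in each library, normal in blue and ARM in red, with replicates as symbols and lines at group means. In all 6 libraries miR-34c-5p (249 to 291 CPM) is highest and miR-34b-5p (0.692 to 0.979 CPM) lowest, miR-34c-3p lies above miR-449a-5p in 5 of 6, and within each row the groups overlap.

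In the counts, the hairpins of the miR-34b and miR-34c cluster differed in which arm was the main product. From miR-34b more counts came from the 3p arm. It stood at 7.42, 7.85 and 9.38 CPM in normal and 8.14, 8.17 and 9.61 CPM in ARM cord. The 5p arm of the same hairpin had 9 to 12 counts a library, 0.938, 0.692 and 0.979 CPM in normal and 0.905, 0.809 and 0.843 CPM in ARM cord. The 5p share of miR-34b was thus 9.59% ± 1.56 in normal and 9.02% ± 0.968 in ARM cord (SD, n = 3 each). From miR-34c the reverse held. Its 3p arm stood at 2.73, 2.69 and 3.92 CPM in normal and 2.34, 3.64 and 5.14 CPM in ARM cord, and its 5p share was 98.9% ± 0.172 in normal and 98.6% ± 0.497 in ARM cord (SD, n = 3 each).

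The mature arms are in capitals in the hairpins. These are shown because, as counted, nearly the same 5p sequence was the minor product of the first and the major product of the second.
miR-34b hairpin: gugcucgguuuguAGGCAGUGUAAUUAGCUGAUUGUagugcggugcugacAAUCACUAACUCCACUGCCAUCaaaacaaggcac
miR-34c hairpin: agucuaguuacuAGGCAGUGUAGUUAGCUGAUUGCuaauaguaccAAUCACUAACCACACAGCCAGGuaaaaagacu
Within the cluster, miR-34b gave 0.324% of the cluster's 5p counts and 71.3% of its 3p counts. How the authors assigned reads that fit both 5p rows, which differ at position 11 and at the last base, is not stated. The split between these rows is therefore uncertain. So is the 5p share of miR-34b, since its 64 5p and 627 3p counts stood beside 19693 5p counts of miR-34c. Its arm preference, group comparison and place among other miRNAs share this limit. The other hairpins with counts gave almost no 3p arm. The 5p share of miR-34a was 100% in 5 libraries and 99.5% in ARM replicate 4, and that of miR-449a was 100% in all 6, where the lowest exact 95% binomial bound was 85.8%, at 24 counts. Among the 217 miRNAs with both arms named and at least 10 counts in every library, 105 (48.4%) had more 3p than 5p counts. Of these 217, 73 had a 5p share at or below that of miR-34b and 45 one at or above that of miR-34c.

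Arm usage did not differ detectably between the groups. The 5p share of miR-34b was 0.569 percentage points lower and that of miR-34c 0.259 points lower in ARM cord (p = 0.6 for each, exact two-sided permutation test, n = 3 and 3). For miR-34a, with a 3p total of 1 count, and miR-449a, with 0, p could only be 1, so these tests decide nothing. Adjusted over the 4 miRNAs, with both of these counted in, all p-values were 1, and 3 against 3 libraries cannot give a p below 0.1. Without normal replicate 4 the miR-34b difference was 0.246 points in the other direction. That of miR-34c was -0.0012 points without ARM replicate 6 and -0.497 points without ARM replicate 4.

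**Figure D2:**
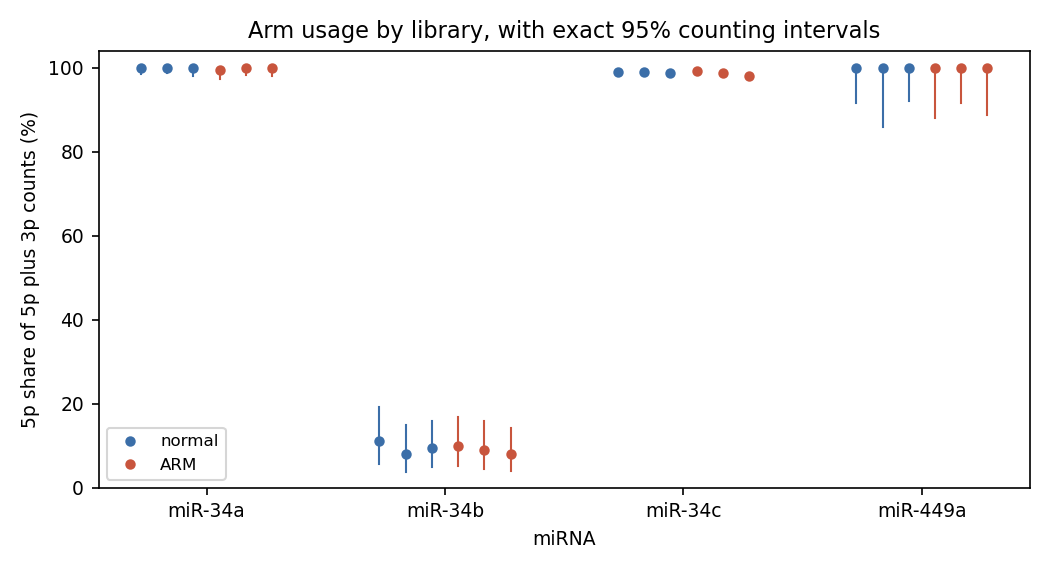
Share of 5p in 5p plus 3p counts (percent) for the 4 miRNAs with counts, by library, normal in blue and ARM in red, with exact 95% binomial intervals as bars. The 6 libraries of miR-34b lie between 8.06% and 11.2%, and those of the other miRNAs at 98.1% or above. The miR-34b share depends on how reads fitting both its 5p row and that of miR-34c were assigned, which is not stated.

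Split by locus, the 5p counts came mainly from the miR-34b and miR-34c cluster. Its share was 91.6%, 91.3% and 93.8% in normal and 93.8%, 92.9% and 93.9% in ARM cord. The miR-34a share was 7.12%, 8.05% and 5.02% in normal and 5.41%, 5.89% and 5.20% in ARM cord. The miR-449 share was 1.31%, 0.630% and 1.16% in normal and 0.813%, 1.19% and 0.927% in ARM cord. Groups overlapped for each locus, and the shares were less spread in ARM cord. The exact two-sided permutation test gave p = 0.3 for the miR-34b and miR-34c cluster, 0.4 for miR-34a and 0.9 for miR-449 (adjusted over the 3 shares 0.6, 0.6 and 0.9, n = 3 and 3). The miR-449 difference of -0.0563 percentage points changed sign without normal replicate 4, without normal replicate 6 and without ARM replicate 4.

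The study's comparison asked which miRNAs differ between ARM and normal cord. No member passed the test. Of 525 tested miRNAs 0% passed an adjusted p of 0.05 in edgeR's quasi-likelihood test, and none of the 6 tested members did (adjusted p 0.918 to 0.988, n = 3 and 3). At an unadjusted p under 0.05 the test had 31 miRNAs (5.90%) and 0 members. DESeq2 called 7 miRNAs, none of them a member. Groups did not overlap for 8.57% of all tested miRNAs and for 0 of the 6 members. Log2 fold changes (ARM minus normal) were above 0 for 2 members and below 0 for 4, beside 49.5% below 0 among all tested miRNAs. Their median was -0.04, against 0.0029 over all. The median size of the log2 fold change, regardless of sign, was 0.10 in both.

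How large a change these libraries could hide differed between members. For miR-34c-5p the log2 fold change was -0.05 ± 0.08 (SE), and the 95% interval of its ARM to normal ratio ran from 0.851 to 1.099. For miR-34a-5p, which had the smallest p of the members (39th of 525), it was -0.35 ± 0.17, with an interval of the ratio from 0.596 to 1.03 (edgeR adjusted p = 0.918). The mean of miR-34a-5p was 19.6 ± 4.01 CPM in normal and 15.3 ± 1.28 CPM in ARM cord (SD, n = 3 each). Without normal replicate 6, its lowest normal library, the log2 fold change was -0.50 with an unadjusted edgeR p of 0.0185 and an adjusted p of 0.818. The intervals of the ratio were wider for the scarce members, at 0.823 to 1.34 for miR-34b-3p, 0.709 to 1.99 for miR-34c-3p, 0.548 to 1.51 for miR-449a-5p and 0.569 to 1.70 for miR-34b-5p. A doubling lay outside every interval. A 1.5-fold rise lay outside those of miR-34c-5p, miR-34a-5p and miR-34b-3p, and a 1.5-fold fall outside those of miR-34c-5p, miR-34b-3p and miR-34c-3p, so a fall of that size was not excluded for miR-34a-5p. A bulk library cannot tell fewer cells of a type from less RNA per cell.

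**Figure D3:**
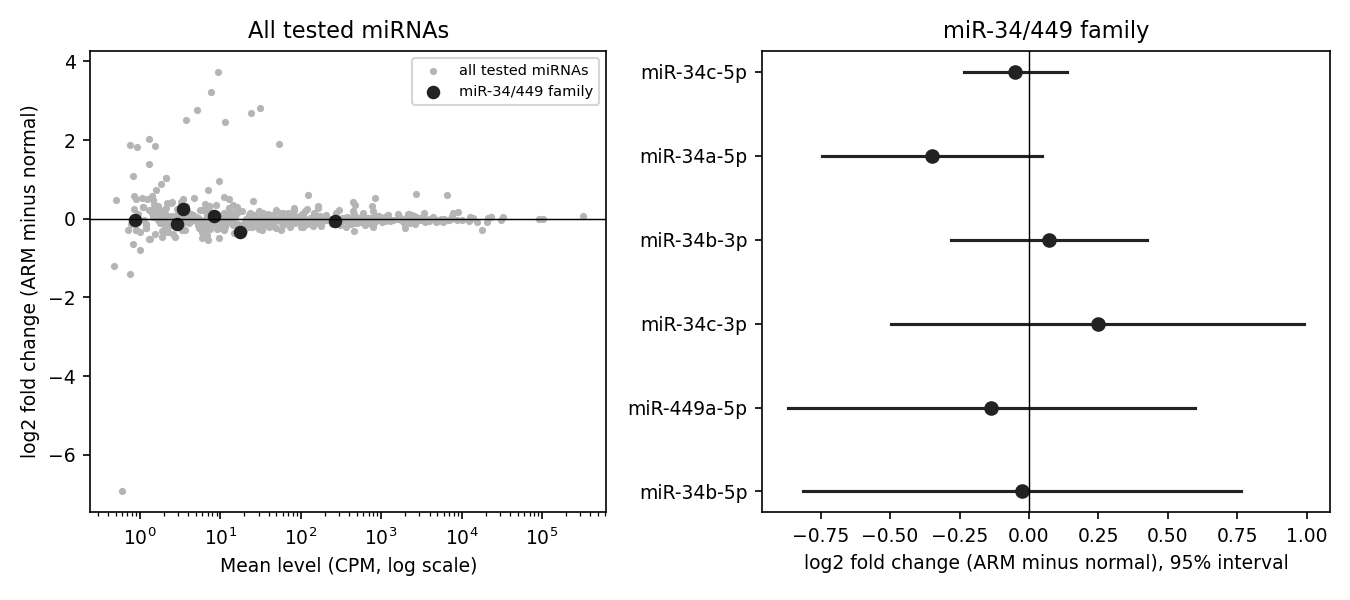
Left, log2 fold change (ARM minus normal) against mean level (CPM, log axis) of the 525 tested miRNAs in grey and the 6 members in black; right, the members' log2 fold changes with 95% intervals from the edgeR fit. Every interval of a member includes 0, from the narrow one of miR-34c-5p to the wide ones of the scarce rows.

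Several members spread more within a group than counting error gives. Among normal libraries the chi-square per degree of freedom of the counts, which is near 1 for counting error, was 19.3 for miR-34c-5p, 10.4 for miR-34a-5p and 4.29 for miR-449a-5p. Among ARM libraries it was 2.76, 1.32 and 1.76. It was near or below 1 for miR-34b-3p, at 1.58 in normal and 1.00 in ARM cord, and for miR-34b-5p, at 0.353 and 0.0357. Among the 6 tested members miR-34c-3p was alone in being more spread in ARM cord, at 6.75 against 1.92 in normal cord. This measure grows with the count, so it does not rank members by relative spread. As a percent of the mean, the SD among normal libraries was 7.73% for miR-34c-5p, the lowest of the 6, and 33.4% for miR-449a-5p. Replicate pairs over all miRNA rows gave 33.8 to 130 per degree of freedom, a value in which rows with high counts weigh most. Whether other rows of like level spread as much as the members was not tested.

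Summed over the 5p arms, the family stood at 273, 293 and 311 CPM in normal and 269, 286 and 282 CPM in ARM cord. The groups overlapped, and the highest sum was 1 normal library. Since miR-34c-5p made up 91.1% to 93.6% of the 5p counts in a library, the sum mainly shows that member. Epithelial, ganglion and muscle sums varied more. The 7 epithelial miRNAs (the miR-200 family, miR-203a-3p and miR-205) summed to 111 to 171 CPM in normal libraries and to 379, 604 and 87.4 CPM in ARM replicates 4, 5 and 6, and the 6 tested had a median log2 fold change of 2.72, all above 0. The sensory ganglion miRNAs miR-182, miR-183-5p and miR-96-5p summed to 7116 to 9801 CPM in normal and 8793 to 14917 CPM in ARM cord, with a median log2 fold change of 0.61 over all 3. In ARM replicates 4, 5 and 6 miR-449a-5p stood at 2.19, 3.40 and 2.61 CPM. Both it and the epithelial sum were highest in replicate 5, but the sum was lowest in replicate 6 and miR-449a-5p in replicate 4. All ARM values of miR-449a-5p lay inside its wide normal range of 1.85 to 3.59 CPM. The muscle sums ran from 122 to 233 CPM in normal and 144.3 to 190 CPM in ARM cord, those of endothelium and vessel wall from 18639 to 19988 and 18717 to 20661 CPM, and those of the neural list, carried by miR-9a-5p, from 360460 to 372587 and 367991 to 389767 CPM. Of the 5 neural miRNAs 2 were above and 3 below 0 (median log2 fold change -0.04). The 3 most abundant were miR-9a-5p at 0.07 ± 0.04, miR-10b-5p at 0.01 ± 0.05 and miR-218a-5p, a motor neuron miRNA, at -0.28 ± 0.08 (log2 fold change ± SE, edgeR adjusted p = 0.934, 0.984 and 0.598). No miRNA of these lists passed the edgeR test over all miRNAs, and the part of these tissues in the members' values was not tested.

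**Figure D4:**
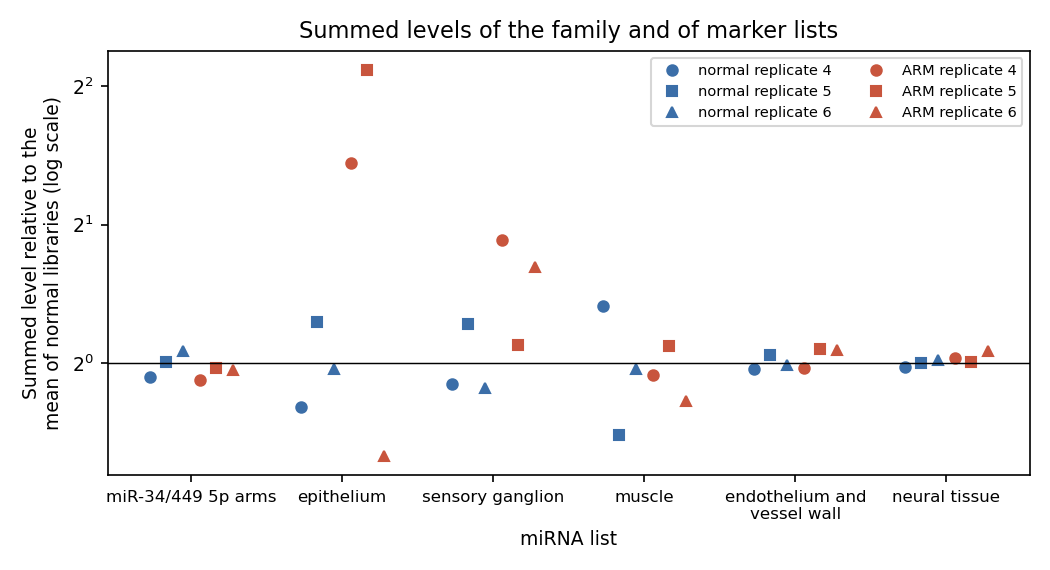
Summed level of the family's 5p arms and of 5 marker lists in each library, relative to the mean of the 3 normal libraries (log axis), normal in blue and ARM in red. The family sum, carried by miR-34c-5p, lies close to 1 in all 6 libraries, while the epithelial list is high in ARM replicates 4 and 5 and low in ARM replicate 6.

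As miR-34a answers to p53, 8 other miRNAs reported downstream of p53 or processed with its help were read beside it. The table had 6 of them, all tested, and none passed in either direction. Their median log2 fold change was -0.00099, with 3 above and 3 below 0. Their summed level ran from 9981 to 10853 CPM in normal and from 10979 to 11930 CPM in ARM libraries. These sums did not overlap, as was so for 8.57% of all tested miRNAs taken singly. Because miR-143-3p made up most of each sum, the sums mainly show that miRNA. The most abundant were miR-143-3p at 8542 ± 422 against 9601 ± 526 CPM, miR-107-3p at 674 ± 39.95 against 656 ± 52.3 CPM and miR-16-5p at 413 ± 11.4 against 407 ± 15.8 CPM (normal against ARM, SD, n = 3 each). Of these miR-143-3p is also a vessel wall miRNA.

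In the lncRNA table, noncoding transcripts named after genes around the family were read in the same way, and they say nothing of the messenger RNAs. Of 50 listed cilia genes 14 had a row, giving 10 tested rows. Of these 1 passed as lower and 0 as higher in ARM cord. Among all 13584 tested transcripts 0.0442% passed as lower, 0.00736% as higher and 0.0515% in either direction. The list was chosen with earlier results of these data known, so the count beside these shares does not measure enrichment. Of the 10 rows 6 were below 0, beside 49.3% of all tested transcripts, and their median log2 fold change was -0.07 beside 0.0036. The row that passed was Lca5.c, named after the gene of the ciliary protein lebercilin, with 41, 55 and 69 counts in normal replicates 1 to 3 and 3, 2 and 4 counts in ARM replicates 1 to 3. It stood at 13.8 ± 1.44 against 0.866 ± 0.361 CPM (SD, n = 3 each; log2 fold change -3.97 ± 0.31, edgeR adjusted p = 0.0124), and the groups lay far apart. The adjusted p missed the threshold with the replicate number as a block (0.232), without normal replicate 3 (0.068) and without ARM replicate 1 (0.0612). The log2 fold change in these fits was -3.98, -3.89 and -3.94, about as large as with all libraries. By CPM, which is not corrected for transcript length, the cilia row with the most reads, Cp110.b, is named after Ccp110, which encodes the centriole cap protein that the family represses in mice, and stood at 167 ± 12.01 against 184 ± 20.2 CPM (log2 fold change 0.14 ± 0.12, edgeR adjusted p = 1). The next were Bbs5.d, named after a gene of the ciliary BBSome, at 26.0 ± 2.55 against 23.7 ± 4.70 CPM, and Rfx4.b, named after a ciliogenic transcription factor of the neural tube, at 19.5 ± 4.46 against 17.9 ± 1.93 CPM.

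Of 24 genes reported as direct targets of the family in mammals, 10 had a row in the lncRNA table. Of their 16 rows 11 were tested and none passed, with 7 log2 fold changes above and 4 below 0 and a median of 0.04. The rows with the most reads were Syt1.c, named after a synaptic vesicle calcium sensor, at 52.8 ± 7.01 against 44.6 ± 10.95 CPM, Numbl.b, named after a Notch pathway inhibitor, at 20.4 ± 1.64 against 19.4 ± 3.07 CPM, and Syt1.b at 13.9 ± 2.06 against 14.7 ± 4.36 CPM. Among the target rows Foxp1.d (chosen after its values were seen), named after a forkhead transcription factor gene, had 14, 33 and 40 counts in normal and 13, 9 and 13 counts in ARM replicates 1 to 3. Its CPM values did not overlap between the groups, as was so for 7.78% of all tested transcripts, and it did not pass (log2 fold change -1.09 ± 0.33, edgeR adjusted p = 1). The other tested row of the gene, Foxp1.c, had the opposite sign, at 11.7 ± 6.27 against 15.2 ± 5.65 CPM (log2 fold change 0.39 ± 0.47). Of the p53 pathway 6 rows were tested and none passed (4 above 0, 2 below, median log2 fold change 0.06). They were led by Mdm4.d at 112 ± 9.49 against 103 ± 9.51, Mdm4.g at 56.9 ± 8.40 against 58.9 ± 16.3 and Mdm2.c at 19.2 ± 7.57 against 20.2 ± 2.68 CPM, all named after inhibitors of p53. Of the coding genes that flank or overlap the loci, Sik2 alone had a row, Snf1lk2.a, at 31.4 ± 3.73 against 33.0 ± 5.05 CPM (log2 fold change 0.07 ± 0.17, edgeR adjusted p = 1).

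The miRNAs most like each locus's leading member across the 6 libraries were found by Pearson's r of log2(CPM + 0.5), given as a description. For miR-34a-5p they were miR-29c-3p (r = 0.90), miR-935 (0.85) and miR-363-5p (0.84), all under 10 CPM in every library. For miR-449a-5p they were miR-653-3p (0.97), miR-873-3p (0.96) and miR-381-3p (0.95), of which miR-873-3p, at 60.5 to 80.5 CPM, was the most abundant. For miR-34c-5p all 3 places fell to predicted miRNAs (0.92 each) out of 5 predicted rows that held the same counts in every library, so they count as a single pattern. All points share library, depth and scaling, and most of these miRNAs rest on few counts. Each was picked for its high r among all tested miRNAs outside the family, over only 6 libraries. Such a choice gives high r values even among unrelated rows. Over the 15 pairs of tested members r ran from -0.65 (miR-34a-5p with miR-34b-3p) to 0.83 (miR-34b-3p with miR-34c-3p). Rows of the miR-34b and miR-34c cluster did not all follow each other, since miR-34b-5p had r = 0.25 with miR-34b-3p, 0.089 with miR-34c-3p and 0.077 with miR-34c-5p. Across loci, miR-34b-5p and miR-449a-5p had r = 0.68.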

How the data were processed

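The members and gene lists were chosen with earlier results of these data known. The authors deposited whole-number read counts per miRNA and per lncRNA, beside TPM values for miRNAs and FPKM values for lncRNAs, per the file headers. The deposited TPM values equal each row's share of the library's miRNA counts, and no test used TPM or FPKM. The submitters' processing notes name TopHat2 2.0.9, Cufflinks 2.1.1, Cuffdiff, CASAVA 1.8 and mm10, which is a mouse build. The sources used here do not give the miRNA aligner, its mismatch rule or the strand setting.

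Groups and replicate numbers came from the labels. Each table was fitted whole with edgeR 4.0.16 in R 4.3.3 (glmQLFit, glmQLFTest, TMM, filterByExpr, no covariate), with Benjamini-Hochberg adjustment over all tested rows and a threshold of 0.05. Of the members 7 had a count and 6 passed filterByExpr. Standard errors and intervals came from the F statistic. Arm shares (at least 10 counts of both arms in every library) and locus shares were tested with exact permutation tests (scipy 1.17.1). The code was tested on simulated data. No replicate pair agreed within counting error (lowest chi-square/df 33.8 for miRNA and 12.4 for lncRNA libraries). Alternatives were RLE or no scaling factors, DESeq2 1.42.0, no filter, a replicate block, leaving out each library and a 2-fold threshold. Named were all members with a count, any list row called, and up to 3 of the highest tested rows of some lists. These were the p53-linked and neural miRNA lists and each lncRNA list, while the other marker lists were given mainly as sums. The Foxp1 rows were named too, chosen after their values were seen. Of 22701 lncRNA rows 8267 had a symbol in the RefSeq GRCr8 gene table.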

Additional observations from a re-analysis of the deposited data

How the results depend on the processing

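No member passed over all miRNAs under any alternative run (RLE, no scaling factors, DESeq2, no filter, replicate block, 1 library left out), and the lowest adjusted p was 0.818. The 2-fold threshold only narrows the calls of the main fit, which had no member, so it could add none. With 1 library left out 0 to 1 members had an unadjusted p under 0.05, the 1 being miR-34a-5p without normal replicate 6, where 21 of 538 tested miRNAs (3.9%) had one. All miRNAs called numbered 7 with DESeq2 and 0 to 3 with 1 library left out, the 3 without ARM replicate 6.

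The log2 fold change of miR-34a-5p stayed negative in all 11 alternatives that refit it, from -0.50 to -0.18. With 1 library left out the others changed sign. They ran from -0.017 (without ARM replicate 6) to 0.17 for miR-34b-3p, from -0.067 (without ARM replicate 6) to 0.51 for miR-34c-3p, from -0.096 to 7.8e-04 (without normal replicate 6) for miR-34c-5p, from -0.15 to 0.060 for miR-34b-5p (above 0 without normal replicate 4 or 6), and from -0.38 to 0.017 for miR-449a-5p (above 0 without normal replicate 4, normal replicate 6 or ARM replicate 4). The difference in 5p share ran from -1.31 to 0.246 percentage points for miR-34b and from -0.497 to -0.0012 for miR-34c, and the locus difference from -0.258 to 0.0834 points for miR-449. The cause of these changes of sign was not tested.

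Called cilia lncRNA rows numbered 0 to 1 with 1 library left out and 0 with the replicate block. The correlation of deviations ran from -0.14 to 0.056 for same-numbered miRNA libraries and from -0.15 to 0.18 for the other pairs. For lncRNA libraries it ran from -0.059 to 0.030 and from -0.061 to 0.058. At 3 libraries a group this cannot show whether replicate numbers pair the libraries. With the block 0 miRNAs were called. Low counts limit what can be said of miR-449a-5p, miR-34c-3p and miR-34b-5p.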

Other observations

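The miRNA table holds 21 predicted rows with at least 100 counts whose counts in all 6 libraries were the same as those of another row. No member was among them.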
